A study of Mus musculus with 12 samples.

Results

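Il2, the mouse gene that encodes the cytokine interleukin-2, was followed on 12 Affymetrix mouse arrays. It is 1 gene read by 1 probe set, 1449990_AT, among the 45101 probe sets of the deposited table, and the pairing of that probe set with Il2 comes from the rule that chose the gene. The gene was selected on its measured log2 values, which differed between strains in both T cell populations, so its levels and strain differences are given as a description, with no test. The 4 groups held 3 arrays each, all of sorted CD4+ CD25+ spleen T cells. Transgenic Treg cells and C57BL/6 Treg cells were sorted from fresh spleen. Transgenic effector cells and C57BL/6 effector cells were sorted after whole spleen cells had been cultured for 48 hours with anti-CD3, which activates T cells through their antigen receptor. The transgenic mice are named C57BL/6-2Rbeta-WT/thymus in the labels and were bred to IL-2Rbeta-deficient mice, and the design text calls their T cells IL-2R defective. The sources used here do not name the promoter that drives the transgene. Each effector array held 1 mouse. Transgenic Treg arrays 1, 2 and 3 held pools of 4, 8 and 3 mice, and C57BL/6 Treg arrays 1, 2 and 3 held pools of 8, 8 and 15 mice. Ages were 15, 14 and 9 weeks for transgenic effector mice, against 10, 14 and 14 weeks for C57BL/6 effector mice. Transgenic Treg donors were 33 weeks, 13 weeks and between 7 and 16 weeks old, against 12, 12 and 10 weeks for C57BL/6 donors.

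IL-2 is made by T cells soon after the T cell receptor and CD28 are engaged, when NFAT, AP-1 and NF-kB factors act on the Il2 promoter. It signals through a receptor of alpha (CD25), beta and gamma chains to the JAK kinases and STAT5, drives T cell growth, and maintains Treg cells, which consume it but make little of it because Foxp3 represses the gene. IL-2 signalling is also known to dampen transcription of Il2 itself. This receptor feedback is why Il2 is of interest in the IL-2R defective cells, but its part in the Il2 values was not tested. In effector cells, donor ages overlapped between the strains and each array held 1 mouse. In Treg cells, donor age and pool size were not balanced between the strains. Transgenic Treg array 2 (13 weeks, 8 mice) was close in both to C57BL/6 Treg arrays 1 and 2 (12 weeks, 8 mice each). The part of age and pool size in the Il2 values was not tested.

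The stretch just before the Il2 start site is shown because it is part of the control region through which these factors act. It covers the 250 bases upstream of the start, on the minus strand, at chr3:37125955-37126204 in RefSeq's GRCm38.p6 annotation. Capitals mark matches to GGAAA, the core that NFAT factors bind, on either strand, and to the TATA box TATAAA.
Il2 promoter: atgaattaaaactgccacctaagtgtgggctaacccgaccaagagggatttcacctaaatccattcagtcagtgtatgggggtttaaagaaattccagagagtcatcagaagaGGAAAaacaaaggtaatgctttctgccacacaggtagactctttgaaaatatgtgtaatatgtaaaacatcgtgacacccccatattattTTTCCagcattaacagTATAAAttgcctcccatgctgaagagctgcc
The NFAT core occurred 2 times, 137 to 133 bases before the start on the sense strand and 47 to 43 bases before it on the antisense strand. At least 1 such core lay in 55.6% of 32851 mouse promoter windows of the same 250 bases, and 21.4% held 2 or more. The TATA box lay 31 to 26 bases before the start, a motif that 12.4% of the windows held on either strand. Neither TGANTCA, the AP-1 consensus (6.75% of windows), nor ATGNAAAT, a form of the octamer (5.03% of windows), was found in these 250 bases on either strand. Only exact matches were searched, so sites that depart from these patterns or lie further upstream would be missed. Absence of a match does not show that the factors have no site here. The motifs marked do not overlap each other.

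Il2 signal was higher in transgenic than in C57BL/6 cells in both populations, and higher in cultured effector cells than in fresh Treg cells in both strains. The values are log2 GCRMA values, and GCRMA is a background correction, normalization and summary of the probes of a set. On transgenic Treg arrays 1, 2 and 3, Il2 read 5.97, 6.46 and 6.26, against 2.87, 2.98 and 2.88 on C57BL/6 Treg arrays 1, 2 and 3. The lowest transgenic Treg array lay 3.00 above the highest C57BL/6 Treg array. On transgenic effector arrays 1, 2 and 3, Il2 read 9.80, 10.27 and 8.55, against 5.92, 6.92 and 5.44 on C57BL/6 effector arrays 1, 2 and 3. These groups did not overlap either, and 1.63 separated the lowest transgenic from the highest C57BL/6 effector array. In bulk samples, fewer cells that make a transcript and less of it per cell cannot be told apart.

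**Figure D1:**
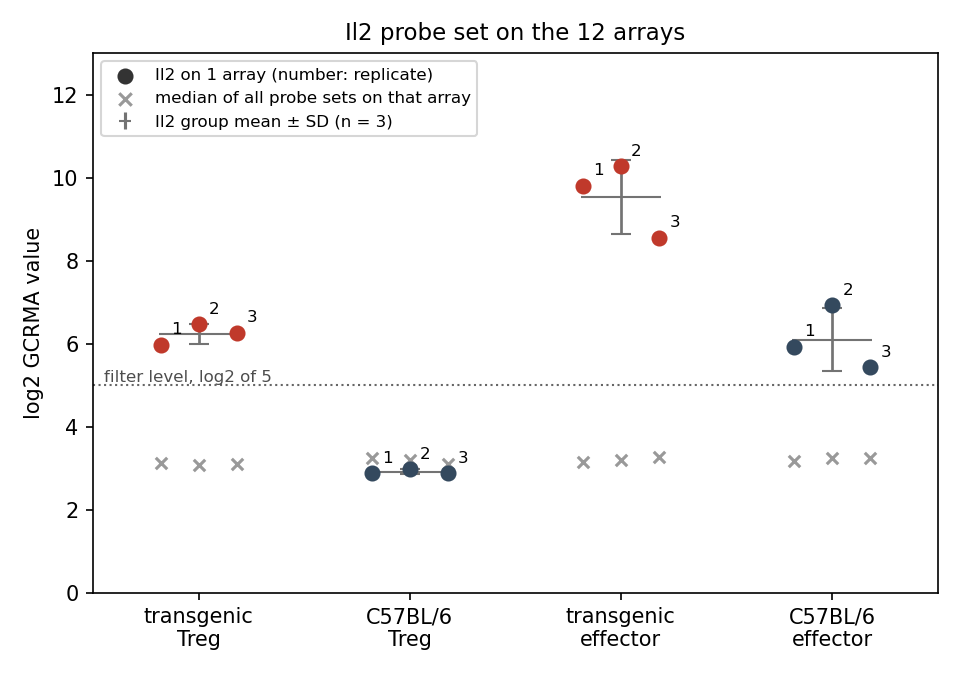
Il2 log2 GCRMA value (vertical axis) on each of the 12 arrays in 4 groups, with dots numbered by replicate, group mean and SD as horizontal and vertical bars (n = 3), and crosses at the median of all probe sets on the same array. The 3 C57BL/6 Treg dots, 2.87 to 2.98, lie just under their array medians, and the other 9 dots lie above the dotted filter level of 5.

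Group means were 6.23 ± 0.25 in transgenic and 2.91 ± 0.06 in C57BL/6 Treg cells (log2, SD, n = 3 each). They were 9.54 ± 0.89 in transgenic and 6.09 ± 0.76 in C57BL/6 effector cells (log2, SD, n = 3 each). The Treg difference was 3.32 on the log2 scale, with a standard error of 0.43 and a 95% interval of 2.37 to 4.28 in the limma fit to all 12 arrays. No fold is given for it, because the C57BL/6 Treg values lay just under the medians of their arrays and were not distinguished from background. The size of this difference, and its interval, therefore depend on the background correction. The effector difference was 3.45, with a standard error of 0.43 and a 95% interval of 2.49 to 4.40, which is 10.9-fold (5.62-fold to 21.1-fold). The fit shares its estimate of the spread among all groups, so both standard errors are equal although the SDs were larger in effector cells. The shared estimate understates the spread of effector arrays and overstates that of Treg arrays, and all intervals given here carry this limit. Both differences exceeded the spread within each group. Il2 was chosen on these values, so the differences and their intervals are a description and no test of a strain difference.

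The Treg difference minus the effector difference was -0.12 on the log2 scale, and its 95% interval ran from -1.48 to 1.23. Since it takes in the Treg difference, this value depends on the background correction too, and the populations are neither shown to differ nor to be alike. Relative to the median of all probe sets on the same array, the transgenic Treg values stood at 2.86, 3.38 and 3.16, against -0.37, -0.21 and -0.21 for C57BL/6 Treg arrays 1, 2 and 3. Transgenic effector values stood 5.28 to 7.08 above their array medians, and C57BL/6 effector values 2.19 to 3.68 above.

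From high to low, the groups ran transgenic effector, transgenic Treg, C57BL/6 effector and C57BL/6 Treg. The middle groups did not differ beyond their spread. The 3 transgenic Treg values, 5.97 to 6.46, fell inside the C57BL/6 effector range of 5.44 to 6.92, and their means differed by 0.14 (95% interval -0.82 to 1.09). Fresh transgenic Treg cells thus gave an Il2 signal in the range that C57BL/6 effector cells gave after anti-CD3 culture. Treg cells minus effector cells came to -3.31 in transgenic mice (95% interval -4.26 to -2.35) and -3.18 in C57BL/6 mice (95% interval -4.14 to -2.23). The C57BL/6 value takes in the C57BL/6 Treg arrays, where Il2 was not distinguished from background. Its size and interval therefore depend on the background correction. The sources used here do not say if Treg and effector arrays were normalized jointly. The lowest log2 value of an array was 0.942 to 0.957 on Treg arrays and 0.296 to 0.325 on effector arrays, so levels set across populations may carry a difference of scale, and population, culture and pooling cannot be told apart.

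Il2 varied little among Treg arrays and more among effector arrays. Its range was 0.49 in transgenic and 0.10 in C57BL/6 Treg cells, and 1.72 in transgenic and 1.49 in C57BL/6 effector cells. The C57BL/6 Treg values were not distinguished from background, and Treg arrays held pools where effector arrays held 1 mouse. The ranges therefore do not tell how steady Il2 expression was. The lowest transgenic effector value, 8.55, was that of array 3, from the youngest mouse. The purification field of this array speaks of fresh spleen whereas its title says effector cells. Its 3′ control probe set for Gapdh read 14.85, within the range of effector arrays (14.78 to 15.05) and above that of Treg arrays (13.42 to 13.63). Without this array the effector difference was 3.94. The highest C57BL/6 effector value, 6.92, was that of array 2, and without it the difference was 3.86.

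Transferrin receptor, the iron-uptake receptor of activated and dividing cells, is among the few genes named on control probe sets. Its 3′ probe set read 10.19, 9.76 and 8.02 on transgenic effector arrays 1, 2 and 3, against 10.20, 9.19 and 10.43 on C57BL/6 effector arrays 1, 2 and 3. The strains overlapped, and the lowest reading was again on transgenic array 3. In Treg cells it read 6.13, 6.35 and 6.96 on transgenic arrays, against 4.39, 6.22 and 7.66 on C57BL/6 arrays, which overlapped as well. Beta-actin, a protein of the cytoskeleton, differed by 0.36 to 0.82 between its 3′ and 5′ probe sets on transgenic effector arrays and by 0.41 to 0.80 on C57BL/6 effector arrays. The same difference, a sign of RNA integrity, was 0.50 to 0.68 on transgenic and 0.56 to 0.88 on C57BL/6 Treg arrays. The part of activation and of RNA integrity in the Il2 differences was not tested.

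Treg arrays differed in the reading of 9 bacterial and phage control probe sets, which averaged 10.93, 10.88 and 11.16 on transgenic arrays 1, 2 and 3, against 12.92, 12.02 and 10.93 on C57BL/6 arrays 1, 2 and 3. C57BL/6 array 3 lay within the transgenic range in this reading and had an Il2 value of 2.88, as low as its group. Within the 4 Treg arrays that carry consecutive sample codes, 2 per strain, the Il2 difference was 3.29. With the control reading as a covariate, the Treg difference was 3.04. All effector arrays carry consecutive codes. The part of the control reading and of the code runs in the Il2 difference was not tested, and the comparison with C57BL/6 array 3 rests on 1 array.

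A split of the arrays that ran partly along strain was shared by 8 probe sets, each with a gap of at least 2 on the log2 scale between a high and a low state. All 3 transgenic Treg arrays and C57BL/6 Treg array 3 were in state 1, as were transgenic effector arrays 2 and 3, and the other 6 arrays were in state 0. Within state 1 of the Treg arrays Il2 averaged 6.23 on 3 transgenic arrays and 2.88 on 1 C57BL/6 array, a difference of 3.35. Within state 0 of the effector arrays it was 9.80 on 1 transgenic array and averaged 6.09 on 3 C57BL/6 arrays, a difference of 3.71. Each of these values rests on 1 array of one strain, and the other state of each population held a single strain.

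The values that chose Il2 can be placed among those of the other probe sets, as a description. Of 18271 tested probe sets (3 or more arrays at a log2 value of 5 or above), 15 had a larger rise than Il2 in Treg cells and 11 in effector cells. Il2 passed this filter on 9 arrays, all but the C57BL/6 Treg arrays. A strain difference of at least 1 in the same, positive direction in both populations was seen in 19 probe sets (0.104%), while 153 reached it in Treg and 529 in effector cells. Ranked by the smaller of both differences, Il2 came after 3 probe sets. All 3 belonged to the 8 probe sets of the shared split, and 0 of the 3 passed limma's adjusted p under 0.05 in either population (2 in Treg and 1 in effector cells had an unadjusted p under 0.05). The median strain difference of all tested probe sets was 0.03 in Treg and -0.01 in effector cells.

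**Figure D2:**
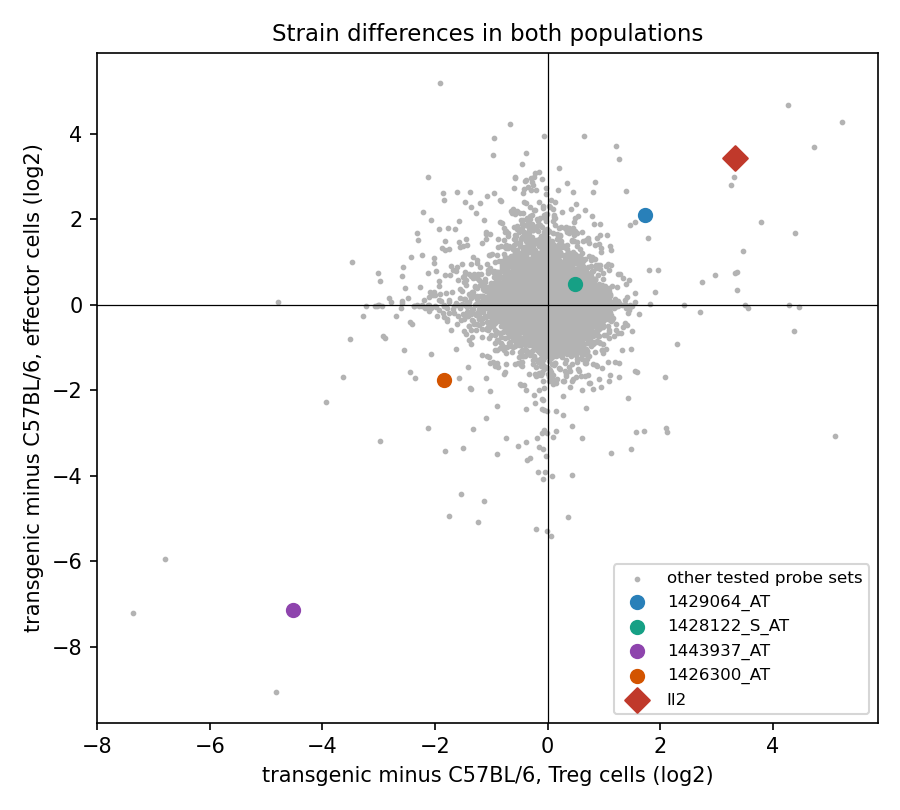
Strain difference of each tested probe set in Treg cells (horizontal axis) and effector cells (vertical axis), as transgenic minus C57BL/6 in log2 units, with Il2 as a red diamond and 4 probe sets named in the text as coloured dots. Il2 lies at 3.32 and 3.45, away from most of the 18271 tested probe sets.

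At a limma adjusted p under 0.05, 71 probe sets (0.389%) were higher in transgenic Treg cells and 350 (1.92%) in transgenic effector cells. In either direction, 218 probe sets (1.19%) were called in Treg and 547 (2.99%) in effector cells, and the strain difference itself differed between populations for 413 (2.26%). The Treg calls numbered 354 with the replicate number as a block, 74 with the Treg arrays fitted alone, 97 with the array state as a covariate, 1232 with array weights and 135 without C57BL/6 Treg array 2. Transgenic cells were called higher in both populations for 8 probe sets (0.0438%), among them Il2 through the values that chose it. The differences of the 7 others were 0.61 to 1.79 in Treg cells and 0.55 to 3.41 in effector cells. All 3 transgenic arrays lay above all 3 C57BL/6 arrays for 7.65% of tested probe sets in Treg cells, for 12.7% in effector cells and for 1.05% in both. Since the Il2 contrasts chose the gene, nothing is read from these shares about Il2.

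Likeness to Il2 was measured as Pearson's r over the 12 arrays after the mean of each population was taken out, which leaves the strain difference and the spread within groups. The arrays share their strain groups, so r is a description and has no p. Of 18270 other tested probe sets, 12 had r of at least 0.9 and 8 had r of -0.9 or less. Among the 10 most alike, r ran from 0.911 to 0.951. Membership of these 10 depended on the measure: 1 stayed with Spearman's rho, 1 without taking out population means, 0 after taking out group means, and 6 to 9 with 1 array left out. All 10 were higher in transgenic cells in both populations, by 0.32 to 1.79 in Treg and by 0.48 to 2.09 in effector cells, which is less than Il2 in each. That direction follows largely from the choice by r, since Il2 itself differed by strain in both populations, so it is no separate result. The same holds for the direction of the most opposite probe sets. The probe sets are not paired with genes here, so they are given by identifier.

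Probe set 1429064_AT was most like Il2, with r of 0.951. It read 6.10, 6.39 and 6.24 on transgenic Treg arrays 1, 2 and 3, against 4.57, 4.42 and 4.53 on C57BL/6 Treg arrays. It read 7.02, 6.63 and 7.05 on transgenic effector arrays, against 4.48, 5.29 and 4.65 on C57BL/6 effector arrays. Its strain groups did not overlap in either population. Within groups its order was not that of Il2 throughout, since among transgenic effector arrays Il2 was highest on array 2 and lowest on array 3, and 1429064_AT the other way round. Its strain difference was 1.74 in Treg and 2.09 in effector cells. Probe set 1428122_S_AT came next, with r of 0.948 and differences of only 0.49 in each population. These were called in neither population (limma adjusted p = 0.208 in Treg and 0.119 in effector cells). Likeness by r therefore concerns the pattern over arrays and not the size.

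Probe sets 1443937_AT and 1426300_AT ran most opposite to Il2, with r of -0.949 and -0.944. Probe set 1443937_AT read 8.65, 7.43 and 7.13 on transgenic Treg arrays, against 12.37, 12.30 and 12.13 on C57BL/6 Treg arrays. It read 5.48, 6.32 and 6.68 on transgenic effector arrays, against 13.34, 13.17 and 13.38 on C57BL/6 effector arrays. It was high on every array where Il2 was at the low end for its population, a pattern that its choice by r largely fixed. Probe set 1426300_AT differed by -1.84 in Treg and -1.77 in effector cells.

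**Figure D3:**
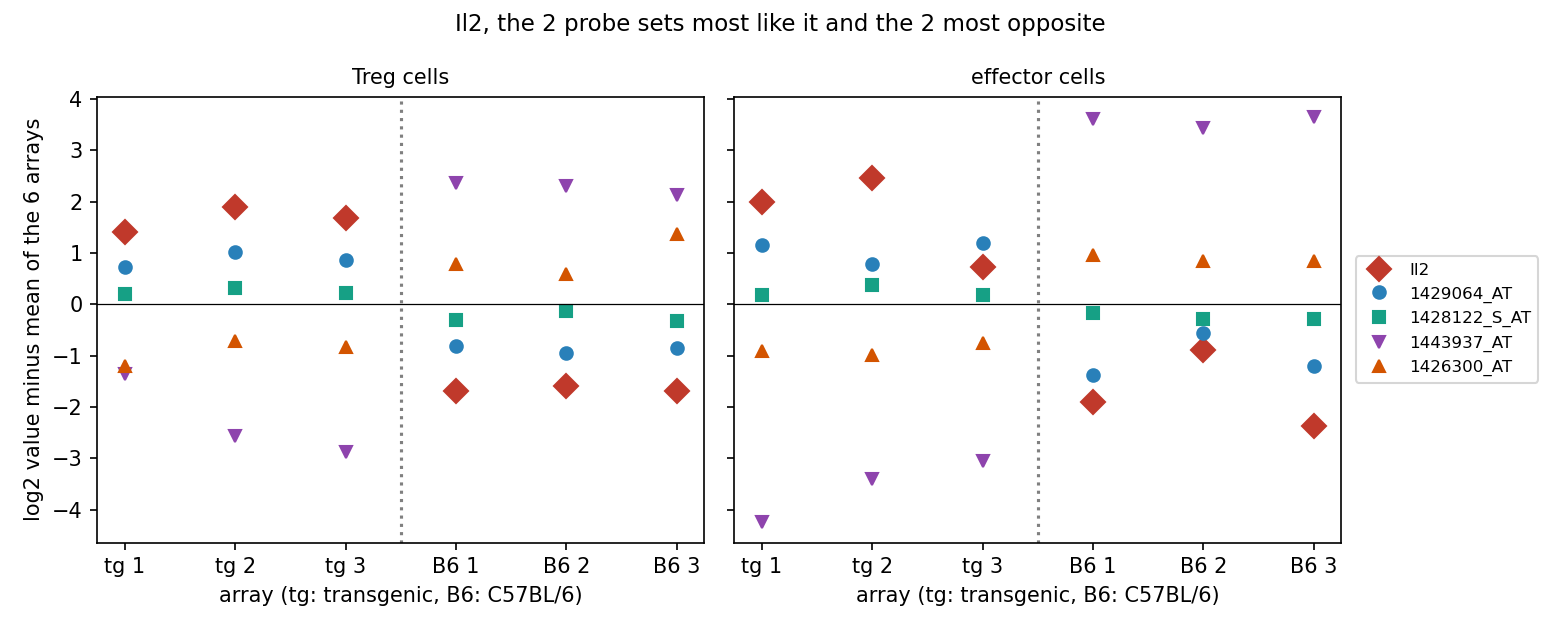
Log2 value minus the mean of the 6 arrays of a population (vertical axis) for Il2, the 2 probe sets most like it and the 2 most opposite, on transgenic (tg) and C57BL/6 (B6) arrays of Treg cells (left panel) and effector cells (right panel). Il2 and both like probe sets lie above 0 on all transgenic arrays and below 0 on all C57BL/6 arrays, and both opposite probe sets do the reverse. The choice of these probe sets by r largely fixed these directions.

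Of the alternatives tried, 13 in Treg and 11 in effector cells could change the difference of Il2 means. It was 3.04 at the lowest in Treg cells, with the control reading as a covariate, and 3.05 at the lowest in effector cells, with quantile normalization over all 12 arrays.

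**Figure D4:**
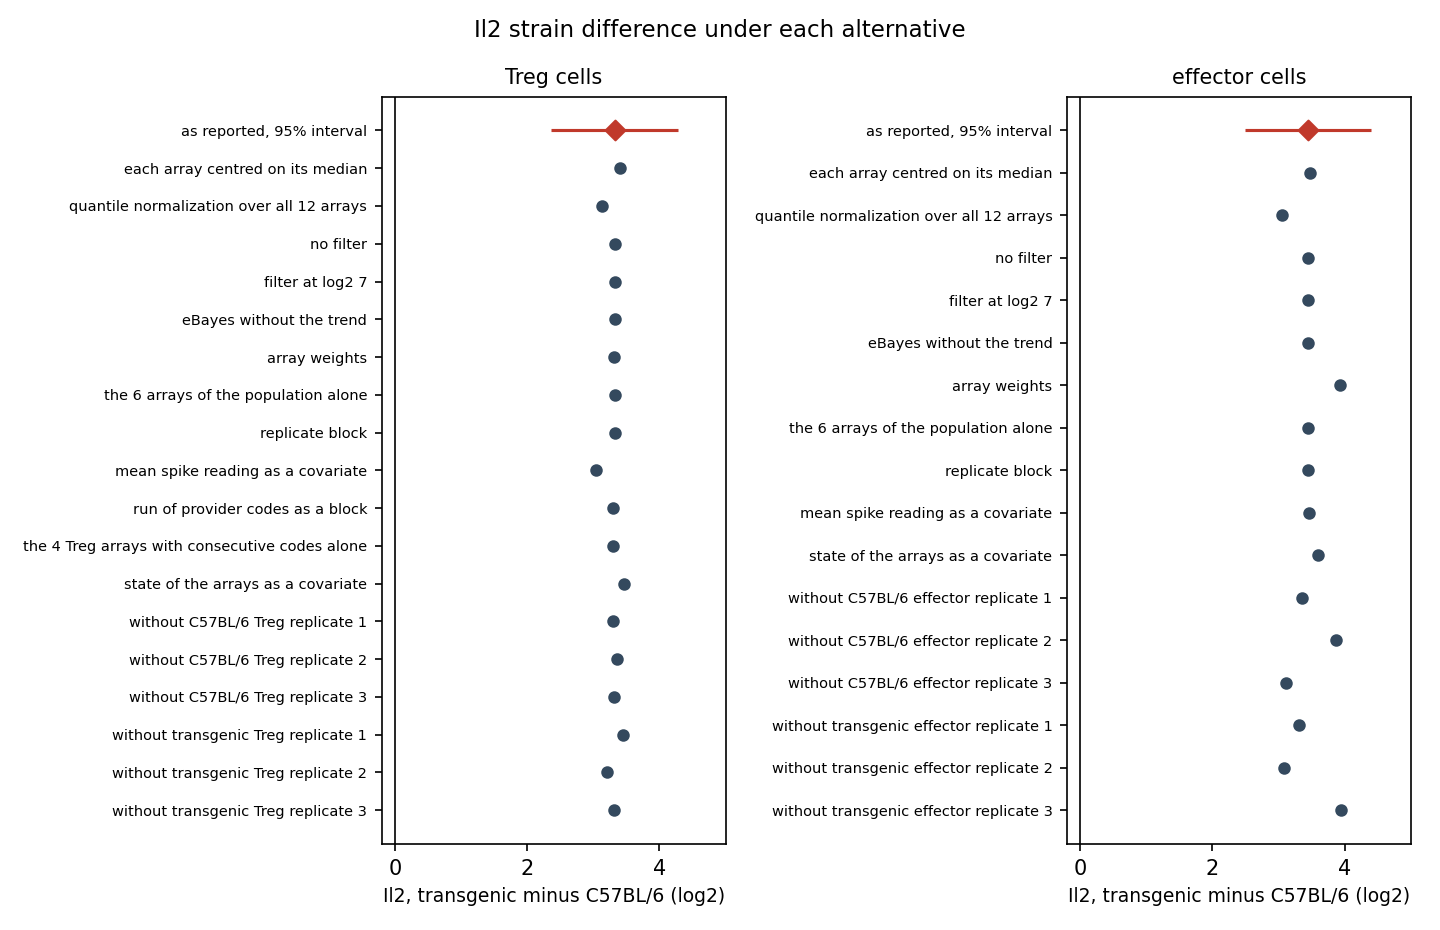
Il2 strain difference, transgenic minus C57BL/6 in log2 units (horizontal axis), as reported with its 95% interval (red) and under each alternative processing or set of arrays (dark dots), for Treg cells (left panel) and effector cells (right panel). All dots lie above 0, from 3.04 to 3.47 in Treg cells and from 3.05 to 3.94 in effector cells.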

How the data were processed

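The deposited values are log2 values made with GCRMA by the authors, per the submitters' processing notes (version not given in the sources used here), with 1 value per probe set and array. RNA was amplified by in vitro transcription before labelling, per the labels' protocols. A linear model of the 4 groups was fitted to the 12 arrays with limma 3.58.1 in R 4.3.3 (eBayes with trend), leaving out 64 control probe sets and keeping probe sets with a log2 value of at least 5 on at least 3 arrays. Calls are Benjamini-Hochberg adjusted p under 0.05 over all 18271 tested probe sets. The fit was also run on simulated data with independent noise for each probe set. Such data cannot show how stable the calls are where many probe sets of an array deviate together. Figures were drawn with matplotlib 3.10.9. The number of arrays limits the precision.

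Il2 and the gene lists were chosen with earlier results of these data known. Only Il2 and the control genes are named, since the sources used here do not pair the other probe sets with genes. The lists drawn up (receptor chains, STAT5 targets, Il2 regulators, cytokines, chromosome 3 neighbours, activation genes, cell type markers and sex-linked transcripts) were therefore not analysed, and neither the disrupted receptor gene nor markers of Treg or other cells were looked up. Named probe sets are the 2 most like Il2 and the 2 most opposite, a rule shortened and extended after the data were seen.

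Groups and replicate numbers were taken from the titles, and for C57BL/6 effector array 3 and transgenic effector array 2 the description gives another number. Deviations from group means correlated at 0.583, 0.102 and 0.511 between same-numbered transgenic and C57BL/6 Treg arrays, all above the minimum of 0.1 set for pairing. No label pairs these arrays, and transgenic array 2 correlated more with C57BL/6 array 3 (0.114). A pairing of Treg arrays is therefore not established. Effector arrays correlated at 0.211, -0.338 and -0.342 and were not taken as paired. The fit reported has no pairing term, and the replicate block was an alternative run for both populations. Samples within a group are separate biological replicates, per the labels. Alternatives covered normalization, filter, variance model, array weights, covariates, blocks and leaving out each array.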

Additional observations from a re-analysis of the deposited data

Results flagged for a closer look

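The strain difference of probe set 1443937_AT, which ran opposite to Il2, differed between the populations. It was -4.53 in Treg and -7.14 in effector cells on the log2 scale, and the difference of 2.61 passed the interaction test (limma adjusted p = 0.0268). All 3 transgenic arrays lay below all 3 C57BL/6 arrays in each population. For Il2 the same quantity was -0.12.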

How the results depend on the processing

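Of 24 alternatives for the Il2 difference in Treg cells and 22 in effector cells, 11 each leave the group means as they are (filters, variance model, population alone, replicate block, arrays of the other population). Under the other 13 and 11 it was 3.04 to 3.47 and 3.05 to 3.94, a description, since the gene was chosen on this difference. The replicate block, which cannot move a balanced difference of 3.32 or 3.45, gave standard errors of 0.47 in Treg and 0.21 in effector cells, against 0.43 without it. Same-numbered effector arrays were not taken as paired, so nothing is read from the smaller value of 0.21. The Treg difference moved by more than the replicate SD with quantile normalization (3.14) and with the spike reading as a covariate (3.04). With 1 array left out it was 3.21 to 3.45, and the effector difference 3.08 to 3.94.

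The 218 Treg calls became 135 with a filter at log2 7, 1232 with array weights, 74 with the Treg arrays alone, 354 with the replicate block (213 of the 218 among them), 368 with the spike covariate and 97 with the array state (the split shared by 8 probe sets) as covariate, an alternative added after the data were seen. They ranged from 135 (without C57BL/6 Treg array 2) to 255 with 1 array left out, and were 141 without transgenic Treg array 1. The 547 effector calls became 347 without a filter, 3033 with array weights, 223 with the effector arrays alone and 220 with the state covariate. They ranged from 266 (without C57BL/6 effector array 2) to 628, and were 295 without C57BL/6 effector array 1 and 355 without transgenic effector array 2. The 413 calls for the difference between both strain contrasts became 2529 with array weights and ranged from 214 (without C57BL/6 Treg array 2) to 433. They were 247 without C57BL/6 effector array 1 or transgenic Treg array 1, 251 without C57BL/6 effector array 2 and 261 without transgenic Treg array 3. The causes were not tested.

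Of the 10 probe sets most like Il2, 1 stayed among the 10 with Spearman's rho, 1 without removing population means, and 0 after removing group means. With 1 array left out 6 to 9 stayed, with 6 without C57BL/6 effector array 3, transgenic effector array 2 or C57BL/6 Treg array 3, so the ranking is not stable. For the 4 named probe sets, 0 of the alternatives turned a strain difference round. Alternatives that needed gene names were not run. All effector arrays share a run of codes, so no block for it was fitted there.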
